A study of Mus musculus with 8 samples.

Results

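The miRs described here are those known to target Runx2 that belong to none of the larger miR families on the array, namely mmu-miR-135a-5p, mmu-miR-137-3p, mmu-miR-204-5p, mmu-miR-205-5p, mmu-miR-217-5p, mmu-miR-218-5p and mmu-miR-338-3p (written below without the prefix of the mouse, mmu). They were chosen by name, as the guide arm of each precursor, and not by their signals. They were 7 of the 1079 murine miRs measured. The array held 4 more miRs of the Runx2-targeting panel, miR-23a-3p, miR-30c-5p, miR-34c-5p and miR-133a-3p, which brings the panel to 11.

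Callus tissue was taken from the femurs of CD-1 mice of both sexes, aged 9 to 14 weeks, at 7 days after an osteotomy stabilised with an intramedullary pin and a metallic clip. In the Union group (specimens P17 to P20) the gap measured 0.25 mm. In the Non-union group (specimens P13 to P16) it measured 1.8 mm, and the periosteum beside the gap was stripped in addition. Each group had 4 specimens with 1 array each. The wide gap and the stripping always came together, so that the gap size and the stripping cannot be told apart. The question was whether a callus on the way to nonunion had another miR profile than a healing one.

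Runx2 is the transcription factor that commits mesenchymal progenitors to the osteoblast lineage and that drives the maturation of chondrocytes. A miR pairs with its target mRNA mainly through its seed, the bases 2 to 8 counted from the 5′ end, and lowers the amount of the protein. Several unrelated miRs pair with the Runx2 mRNA, and many of them are best known from other tissues. MiR-204-5p holds back osteoblasts and favours adipocytes in mesenchymal progenitors, miR-205-5p is typical of epithelium, miR-217-5p of the pancreas and miR-137-3p of the brain. MiR-338-3p is abundant in the nervous system, miR-218-5p marks motor neurons and favours osteoblast differentiation, and miR-135a-5p also targets Smad5, a mediator of BMP signals.

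The mature sequences of all 7 were found in RefSeq (build GRCm38.p6). They are shown because these miRs share a target and not a seed. They run from 5′ to 3′ with the seed in capitals.
miR-135a-5p: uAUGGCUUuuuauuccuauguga
miR-137-3p: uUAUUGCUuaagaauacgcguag
miR-204-5p: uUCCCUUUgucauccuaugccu
miR-205-5p: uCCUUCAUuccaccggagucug
miR-217-5p: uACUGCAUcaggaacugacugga
miR-218-5p: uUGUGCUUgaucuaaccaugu
miR-338-3p: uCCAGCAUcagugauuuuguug
The 7 miRs had 7 distinct seeds. Seeds were compared among the miRs with a RefSeq sequence, which miR-135b-5p, also on the array, lacked. The seed of miR-204-5p was shared with miR-211-5p and miR-7670-3p, and that of miR-218-5p with miR-7002-3p. Of these relatives, the array carried miR-211-5p alone, which differed from miR-204-5p by the substitution A17U, counted from the 5′ end, over 22 bases.
miR-211-5p: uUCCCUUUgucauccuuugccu

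The hairpins from which the detected arms are cut are shown with the detected arm in capitals, since the other arm of each hairpin was measured as well.
Mir338: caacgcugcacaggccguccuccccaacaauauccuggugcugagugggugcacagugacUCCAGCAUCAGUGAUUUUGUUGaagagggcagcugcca
Mir218-1: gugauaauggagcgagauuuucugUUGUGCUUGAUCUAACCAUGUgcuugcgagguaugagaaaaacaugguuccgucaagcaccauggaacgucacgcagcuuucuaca
Mir218-2: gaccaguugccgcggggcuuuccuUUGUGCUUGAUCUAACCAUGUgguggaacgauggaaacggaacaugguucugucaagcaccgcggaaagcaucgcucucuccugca
Mir204: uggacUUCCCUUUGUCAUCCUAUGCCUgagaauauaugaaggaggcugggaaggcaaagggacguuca
Mir135a-1: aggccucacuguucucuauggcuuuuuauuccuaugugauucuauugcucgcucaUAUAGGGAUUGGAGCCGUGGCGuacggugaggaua
On GRCm38.p6, Mir338 lay at chr11:120014765-120014862 on the minus strand, within the span of Aatk, a kinase gene. Both copies of miR-218 lay in genes of secreted Slit proteins, which guide axons. Mir218-1 lay at chr5:48223942-48224051 (plus strand) within Slit2, and Mir218-2 at chr11:35616816-35616925 (plus strand) within Slit3. Mir204 lay at chr19:22750605-22750672 (plus strand) within Trpm3, the gene of a cation channel. Mir135a-1 lay at chr9:106154124-106154213 (plus strand) within the spans of Glyctk and of the long non-coding RNA D030055H07Rik. Mir135a-2 at chr10:92072086-92072185 (minus strand) and Mir137 at chr3:118433857-118433929 (plus strand) lay in no listed gene. Mir205 at chr1:193507463-193507530 (minus strand) lay within Mir205hg, and Mir217 at chr11:28763728-28763835 (plus strand) within Gm40818, both long non-coding RNA genes. Exons and introns were not assigned, because the gene table used gives gene spans only.

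Of the 7 miRs, 2 were detected on all 8 arrays, miR-218-5p and miR-338-3p, and 1 was detected on 7 arrays, miR-204-5p. The other 4, miR-135a-5p, miR-137-3p, miR-205-5p and miR-217-5p, were detected on none. A miR counted as detected on an array where the signal of at least 1 of its probes exceeded 3 times the error that the scanner software gave it. The shares of the 7 were thus 28.6% on all arrays, 14.3% on some and 57.1% on none. Over the 1079 murine miRs, 310 (28.7%) were detected on all arrays, 112 (10.4%) on some and 657 (60.9%) on none. All 4 further miRs of the panel were detected on all arrays. Detection did not divide the groups, since miR-204-5p was called on 4 of 4 Non-union and 3 of 4 Union arrays and no other member was called on only some arrays.

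**Figure D1:**
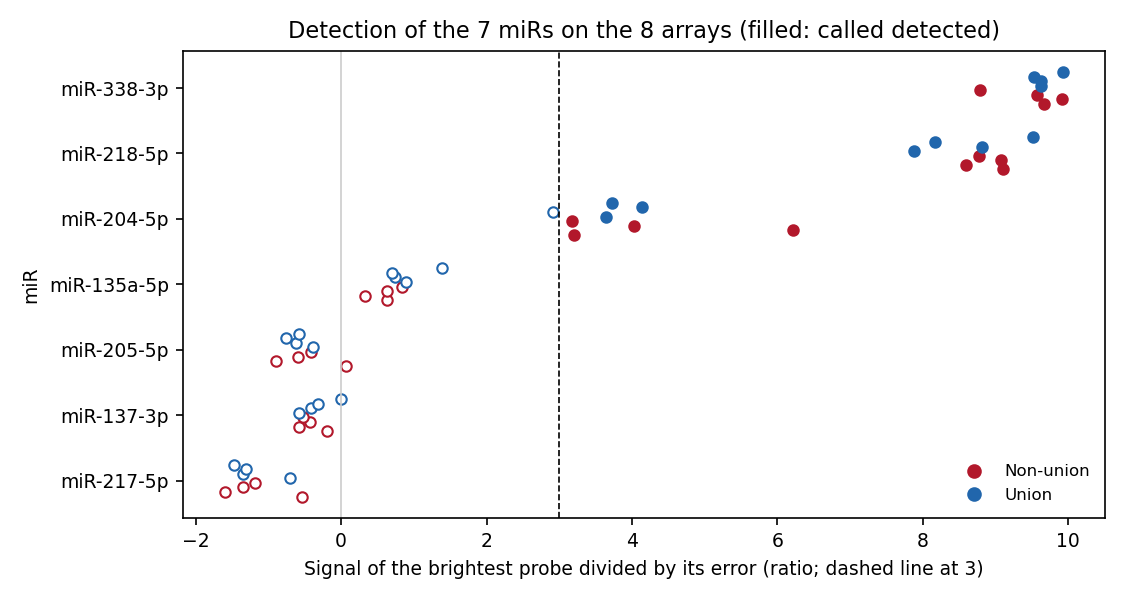
Signal of the brightest probe divided by its error (x axis, a ratio without unit) for each of the 7 miRs on each of the 8 arrays, Non-union in red and Union in blue, filled where the software called the miR detected. MiR-338-3p and miR-218-5p lie far right of the dashed line at 3, miR-204-5p lies from 2.92 to 6.22, and the other 4 reach at most 1.39.

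Of the 2 members detected on all arrays, miR-338-3p (mmu-miR-338-3p) varied more, and its high arrays lay in both groups. Its merged signal, the sum that the software takes over the detected probes of a miR, was 65.6, 165, 56.0 and 33.5 units on the Non-union arrays P13 to P16. On the Union arrays P17 to P20 it was 68.9, 67.4, 52.1 and 206 units. The 2 high arrays, P14 and P20, came from different groups, and the groups overlapped. After quantile normalization the levels were 6.08, 7.15, 5.86 and 5.50 on the log2 scale in the Non-union group and 5.66, 5.73, 5.86 and 7.67 in the Union group. The means of the normalized levels, 6.15 ± 0.71 for Non-union and 6.23 ± 0.96 for Union (SD, n = 4 each), lay close together. The difference was -0.08 (Non-union minus Union, log2, SE 0.51, 95% interval -1.24 to 1.07), with an adjusted p of 0.915 from limma and an exact permutation p of 0.83. Differences of more than 2-fold in either direction lay within this interval, so that 4 arrays a group could not separate a difference of that size from none. Without P20 the difference was 0.40, without P16 0.13 and without P15 0.03, each with the opposite sign, and without P14 it was -0.42.

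The spread of miR-338-3p within the groups held rank 29 from the top among the 310 miRs detected on all arrays. Both of its probes followed the same course. Probe 1 gave 34.5 and 40.5 units on P14 and P20 against 5.88 to 13.8 on the other arrays, and probe 2 gave 130 and 166 units against 27.6 to 55.3. The ratio of probe 2 to probe 1 stayed between 3.77 and 4.70 over the 8 arrays (median 4.09), and no spot was saturated. The high readings of P14 and P20 thus stood on 2 probes of 20 spots each.

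MiR-218-5p (mmu-miR-218-5p) gave 50.9, 40.5, 49.5 and 45.6 units on P13 to P16, and 33.1, 44.5, 30.9 and 75.4 units on P17 to P20. The Non-union arrays lay close together, whereas the Union group held both the lowest values, on P17 and P19, and the highest, on P20. The normalized levels were 5.67, 5.22, 5.73 and 5.94 in the Non-union group and 4.64, 5.26, 5.0 and 6.34 in the Union group, so that the groups overlapped. The means were 5.64 ± 0.30 and 5.31 ± 0.73 (SD, n = 4 each). The difference of 0.33 (log2, SE 0.36, 95% interval -0.48 to 1.14), a 1.26-fold higher mean in the Non-union group, did not pass the test, with an adjusted p of 0.547 from limma and an exact permutation p of 0.429. Its size depended most on the arrays P20 and P17. Without P20 the difference was 0.69 (SE 0.25), with an unadjusted limma p of 0.0244 and an adjusted limma p of 0.286. Without P17 it was 0.10, the smallest value over the 8 fits that left out an array, and without P14 0.47.

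All spots of miR-218-5p over the 8 arrays were well above background, 160 of 160 for each probe. Its 2 probes rose and fell together, with a ratio of probe 2 to probe 1 of 1.40 to 1.59 (median 1.52). The coefficient of variation between spots of a probe was 4.85% to 15.2% for probe 1 and 5.72% to 10.2% for probe 2.

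**Figure D2:**
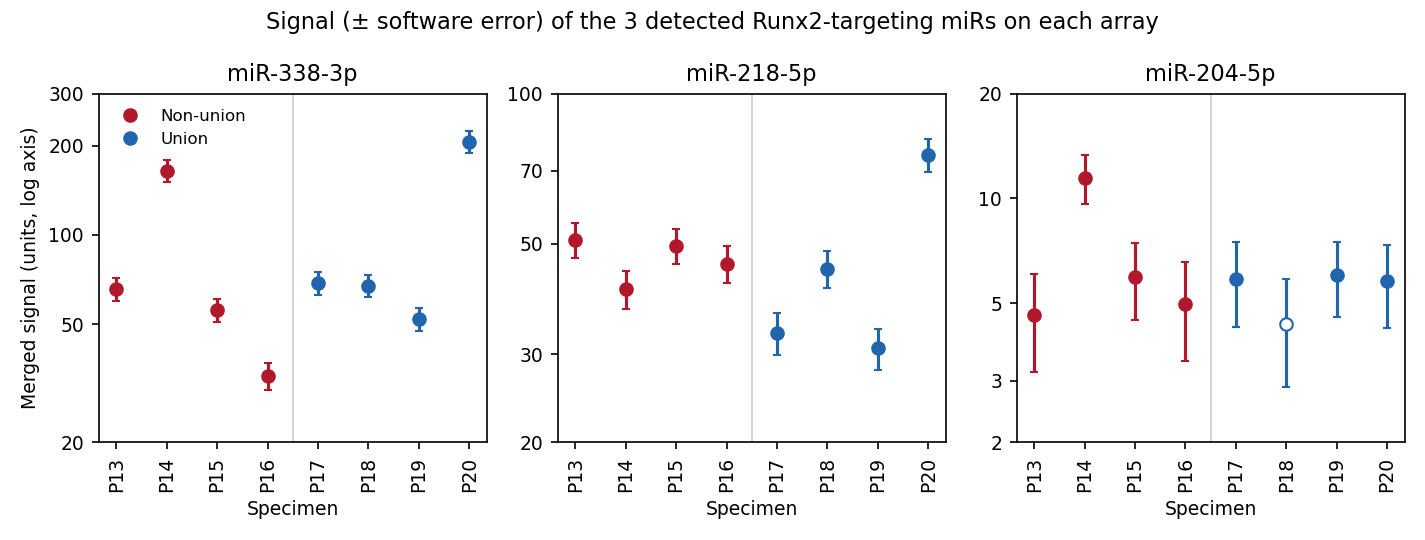
Merged signal (y axis, units, log axis with its own range in each panel) of miR-338-3p, miR-218-5p and miR-204-5p on the arrays of specimens P13 to P20, with bars of ± 1 error as given by the scanner software. The open circle on P18 is the signal of probe 1 of miR-204-5p, which was not called detected there. MiR-338-3p is high on P14 and P20, miR-218-5p on P20 and miR-204-5p on P14.

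MiR-204-5p was measured near its limit. The merged signal of mmu-miR-204-5p was 4.63, 11.5, 5.95 and 4.99 units on P13 to P16, and 5.88, 6.04 and 5.80 units on P17, P19 and P20. On P18 the miR was not detected, with 4.37 units on its brighter probe, which was 2.92 times the error. On the 7 other arrays this ratio was 3.18 to 6.22. P14 stood above the rest, and the other 6 detected values, from 4.63 to 6.04 units, lay within about 1 software error (1.45 to 1.61 units) of each other. Probe 1 alone carried the call. Probe 2 gave 1.30 to 2.82 units, which was 0.906 to 1.92 times its error, and 35 of the 160 spots of probe 1 but 0 of the 160 spots of probe 2 were well above background.

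P18 was set to the 4.37 units of its brighter probe. The normalized levels of miR-204-5p were then 1.49, 3.25, 2.74 and 3.24 in the Non-union group. In the Union group they were 1.17, -1.41, 2.67 and 1.75. The value of P18 is a reading just under the call limit of 3 times the error, and not an upper bound. The Union group was thus called detected on 3 of 4 arrays, and no SD is given. In units P18 lay close to P13, at 4.37 against 4.63, but after normalization it lay far below. With this value for P18 the difference of the means was 1.63 (log2), with overlapping groups and an exact permutation p of 0.114. The size of this difference depended on the normalization, in which the undetected miRs also took part at a signal of 0.1. It was 0.20 with no normalization (exact permutation p 0.686), 0.43 with scaling to the 75th percentile (exact permutation p 0.2) and 0.24 in the value table that the authors deposited (exact permutation p 0.114). Without P18 it was 0.86. The smallest two-sided p that 4 against 4 arrays allow is 0.0286.

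**Figure D3:**
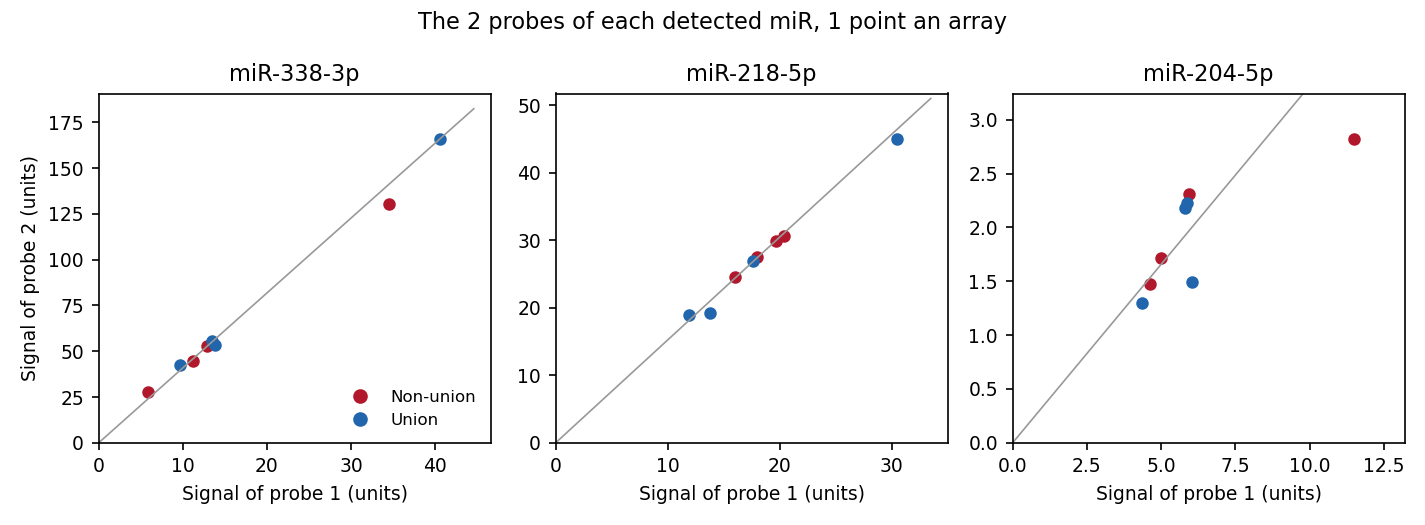
Signal of probe 2 (y axis, units) against that of probe 1 (x axis, units) of miR-338-3p, miR-218-5p and miR-204-5p, 1 point an array, Non-union in red and Union in blue, with a line at the median ratio. The points of miR-338-3p and miR-218-5p follow the line, while probe 2 of miR-204-5p gives 1.30 to 2.82 units and was not detected on any array.

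Of the 4 undetected members, miR-135a-5p came nearest to the limit. The brighter probe of mmu-miR-135a-5p gave 0.476 to 2.02 units, at most 1.39 times the error, with the highest reading on P20, and 0 of its spots were well above background. The probes of mmu-miR-137-3p and mmu-miR-205-5p gave brightest probe signals of -0.864 to -0.000865 and of -1.29 to 0.0907 units after background subtraction. The brightest of the 4 probes of miR-217-5p gave -1.14 to -0.373 units. For these 4 miRs the arrays give no level and no fold change, and a low level in callus was not detectable here. The deposited value table lists a number for each of them on every array, for miR-135a-5p 2.74 to 3.16 on the log2 scale, because it also gives values to undetected miRs. Read above its minimum, that table would count 7 of 7 members on all arrays.

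MiR-211-5p, the seed relative of miR-204-5p, and miR-135b-5p, named as kin of miR-135a-5p but with no sequence in the table used here, were detected on none of the 8 arrays. The brightest probe of miR-211-5p reached 0.982 to 2.50 times its error, and that of miR-135b-5p 0.637 to 1.81 times.

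Of the 9 other arms of the members' precursors, 1 was detected on all arrays and 8 on none. The detected one was miR-135a-1-3p, opposite the undetected miR-135a-5p.
miR-135a-1-3p: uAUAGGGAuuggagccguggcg
This arm is made of G and C to 59.1%, against 30.4% in miR-135a-5p. Its merged signal was 33.4, 32.7, 20.6 and 17.8 units on P13 to P16 and 48.0, 66.9, 18.4 and 38.5 units on P17 to P20. The Union group held the 3 highest arrays and, with P19, the second lowest, so that the groups overlapped. The difference was -0.37 (log2, SE 0.31), with an adjusted p of 0.447 from limma. Without P19 it was -0.66, with an unadjusted limma p of 0.0176 and an adjusted limma p of 0.0813. Without P18 it was -0.17, with normexp background correction -0.07 and with no normalization -0.63. Its 4 probes differed in brightness. Probes 3 and 4 gave 6.79 to 23.9 and 11 to 39.6 units, and probes 1 and 2 0.262 to 2.10 and 1.09 to 3.38 units. Probes 3 and 4 were both highest on P18 and lowest on P16. The arms opposite miR-338-3p, miR-204-5p and both copies of miR-218-5p were undetected throughout. On the array, 183 precursor names had both arms under the same name and at least 1 arm detected on all arrays. Of these, 120 (65.6%) had the other arm on none. MiR-218 and miR-135a, whose 3p arms carry a copy number, were not among them.

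Over the panel, 6 Runx2-targeting miRs could be tested, of which 3 had a higher and 3 a lower mean in the Non-union group, and 0 of the 6 had an unadjusted limma p under 0.05. The background was 13.9% of the 310 tested miRs at this threshold, 9.68% (30 miRs) higher and 4.19% (13 miRs) lower, and 0.323% (1 miR) at an adjusted limma p under 0.05. A mean fold change of 2 or more was found for 0 of the 6 and for 8.39% of the 310. This share includes dim miRs such as let-7a-1-3p, with a 3.85-fold difference at means of 1.47 (Non-union) and -0.47 (Union). The lowest group mean among the 6 was 5.31, that of miR-218-5p in the Union group. The median difference of the 6 was 0.08 on the log2 scale, against 0.15 over all 310. The 2 tested members were 1 higher and 1 lower. The count by limma depends on the test, since miR-23a-3p had an exact permutation p of 0.0286 against an unadjusted limma p of 0.171.

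The 4 further miRs of the panel differed in their course over the arrays. MiR-23a-3p, which lies in a cluster with miR-27a and miR-24, gave 2880, 2819, 2714 and 1984 units on P13 to P16 and 2491, 2137, 2206 and 2626 units on P17 to P20. Its normalized levels, 11.47, 11.36, 11.47 and 11.32 against 11.10, 11.10, 11.23 and 11.23, did not overlap, as was the case for 3.87% of the tested miRs. The difference was 0.24 (SE 0.16), with an exact permutation p of 0.0286, the smallest possible. The unadjusted limma p was 0.171 and the adjusted limma p 0.387. The authors listed miR-23a-3p among the miRs that differed significantly. Its spread within the groups was the smallest of the 310, rank 310 from the top, and with no normalization the groups overlapped and the difference was 0.13. MiR-34c-5p, a miR of the p53 pathway, gave 85.2 to 108 units in the Non-union group and 66.6 to 107 units in the Union group, with a difference of 0.55 (SE 0.33, adjusted limma p 0.378). Without P20 the difference was 0.77, with an unadjusted limma p of 0.0340 and an adjusted limma p of 0.286. It was 0.36 without P17, 0.39 without P18 and 0.27 with no normalization. MiR-30c-5p gave 156 to 305 units and 240 to 515 units, with a difference of -0.38 (SE 0.21, adjusted limma p 0.378), which was -0.24 without P17 and -0.58 with no normalization. MiR-133a-3p, typical of skeletal muscle, gave 2056 to 9095 units and 5616 to 16076 units, with a difference of -0.52 (SE 0.36, adjusted limma p 0.387). Without P16, the array with the lowest signal of this miR, the difference was -0.19.

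**Figure D4:**
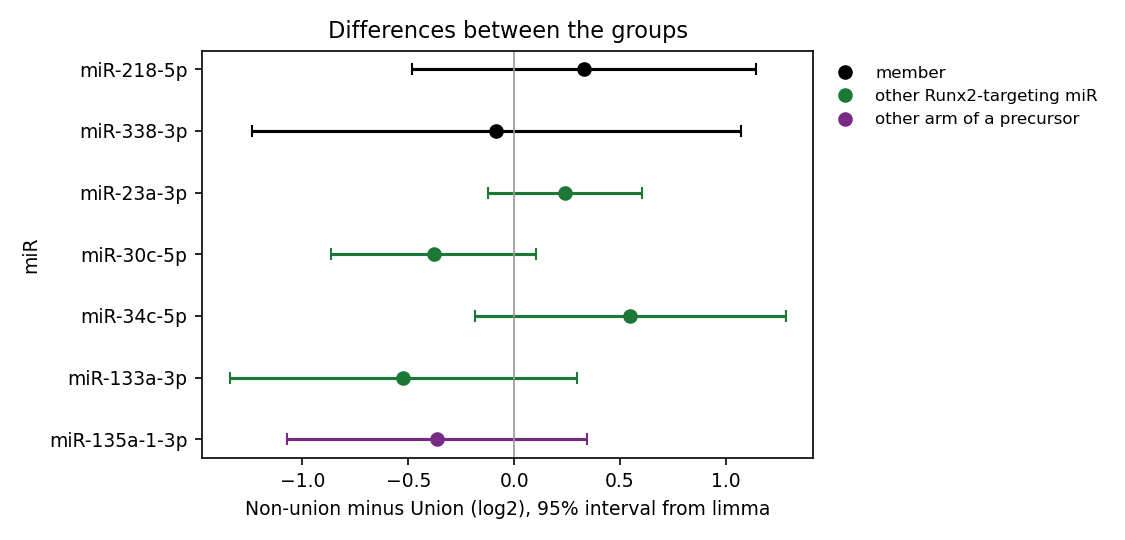
Difference Non-union minus Union (x axis, log2 of the normalized signal) with the 95% interval from limma for the 2 members detected on all arrays, the 4 further Runx2-targeting miRs and miR-135a-1-3p, 4 arrays a group. All 7 intervals include 0. The differences run from -0.52 for miR-133a-3p to 0.55 for miR-34c-5p. The SE runs from 0.16 for miR-23a-3p to 0.51 for miR-338-3p.

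MiR-218-5p and miR-338-3p were both highest on P20, but their courses over the other arrays differed. Over the 8 arrays, which share 1 slide and 1 scan, the Pearson r of their normalized levels was 0.44 and Spearman's rho 0.24. Without P14 and P20 it was 0.05, and without P20 alone -0.10, so that the relation rested on P20. The 3 miRs with a course most like that of miR-218-5p, among 309 compared, were miR-5117-5p (r 0.91, rho 0.86), miR-21-3p (r 0.90, rho 0.88), the passenger arm of miR-21, and miR-219-5p (r 0.86, rho 0.80), a miR of oligodendrocytes. Without P17 and P20 these r were 0.90, 0.76 and 0.62. For miR-338-3p they were miR-10a-5p (r 0.91, rho 0.83), encoded in a Hox cluster, miR-3473 (r 0.80, rho 0.79) and miR-192-5p (r 0.80, rho 0.90). Without P14 and P20 these r were 0.61, 0.64 and 0.92. These values describe the same 8 arrays and were not tested.

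Markers of other tissues were read beside the members, since in a bulk sample fewer cells of a type and less RNA per cell cannot be told apart. The arrays detected 324 to 391 murine miRs each, with a summed signal of 183513 to 359995 units. The sums of the marker lists given here were taken without normalization, whereas the tests used normalized levels. P16 had the lowest summed signal and P17 the highest, and they also held the lowest and highest sums of the muscle list. All 4 cartilage miRs (miR-140-3p, miR-140-5p, miR-455-3p and miR-455-5p) were higher in the Non-union group with an unadjusted limma p under 0.05, as 9.68% of the tested miRs were, and their summed signal was 934 to 3521 units against 484 to 996 units. After adjustment 0 of the 4 passed, with adjusted limma p of 0.288 to 0.313. The 3 myeloid miRs (miR-223-3p and both arms of miR-142) summed to 3534 to 4985 units in the Non-union group and 5376 to 20398 units in the Union group. All 3 were lower in the Non-union group, as were 126 of the 310 tested miRs. MiR-223-3p had an unadjusted limma p under 0.05 (difference -1.13, adjusted limma p 0.346), as 4.19% of the tested miRs had in this direction. The highest sum was that of P20, the array on which miR-338-3p and miR-218-5p were highest. The next was 6376 units on P17, where the normalized level of miR-218-5p was lowest. The lowest sum, 3534 units, was that of P14, the other array high in miR-338-3p. Of the 9 epithelial miRs, 0 were detected on all arrays and 5 on none (miR-200a-3p, miR-200b-3p, miR-429-3p, miR-183-5p and miR-182-5p), and their sum was highest on P14 and P20, at 16.6 and 17.6 units against 0 to 6.35 units elsewhere. P14 and P20 were the 2 arrays high in miR-338-3p, but their sums were made up of partly different miRs. On P14 these were miR-203-3p (8.92 units) and miR-96-5p (7.67). On P20 they were miR-200c-3p (4.89), miR-141-3p (6.41) and miR-96-5p (6.29). MiR-203-3p was undetected on P20 but detected on P13, P17, P18 and P19. MiR-96-5p was also detected on P16 (4.92 units), where miR-338-3p was lowest. MiR-205-5p, itself epithelial, was undetected on P14 and P20 too. Of the 6 neural miRs, miR-128-3p and miR-219-5p were detected on all arrays, miR-9-5p on P20 alone, and miR-124-3p, miR-138-5p and miR-153-3p on none. The 3 pancreatic miRs (miR-216a-5p, miR-216b-5p and miR-375-3p) were undetected on all arrays, as miR-217-5p was. The muscle list summed to 14855 to 62359 units in the Non-union group and 36945 to 95817 units in the Union group, and 4 of its 6 miRs were detected on all arrays with 0 under an unadjusted limma p of 0.05. Of 9 miRs tied to osteogenic differentiation, 8 were detected on all arrays, 4 higher and 4 lower, with 0 under that threshold. The red blood cell miRs miR-451 and miR-144-3p summed to 2954 to 9448 units and 3043 to 16626 units, again with 0 under that threshold. The part of these tissues in the levels of miR-338-3p and miR-218-5p was not tested.

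**Figure D5:**
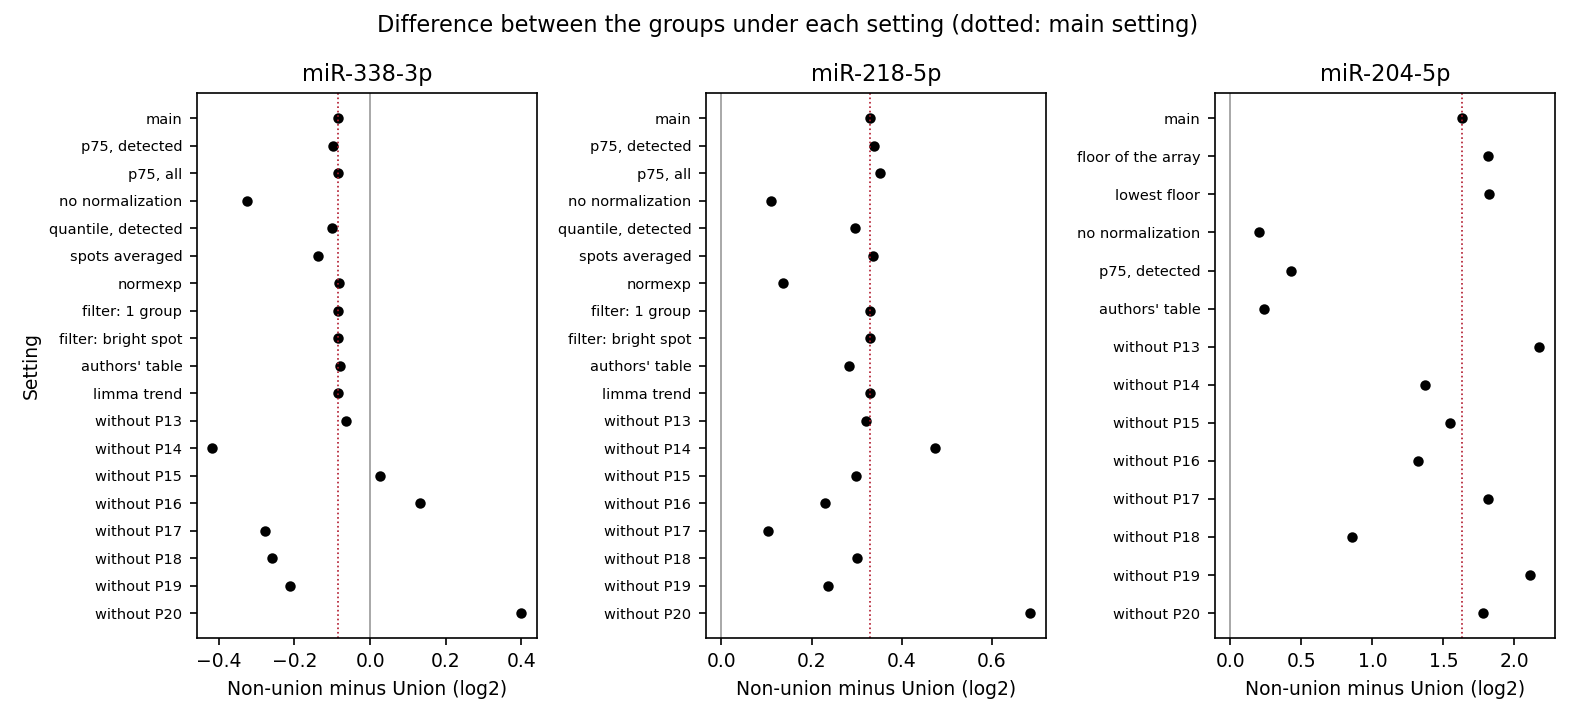
Difference Non-union minus Union (x axis, log2) of miR-338-3p, miR-218-5p and miR-204-5p under each setting (y axis), with the dotted line at the main value. Labels with p75 stand for scaling to the 75th percentile. MiR-338-3p crosses 0 without P15, P16 or P20, miR-218-5p runs from 0.10 to 0.69, and miR-204-5p falls from 1.63 to 0.20 with no normalization.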

How the data were processed

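Callus RNA of 8 specimens was measured on the 8 arrays of 1 slide, and specimens were assigned to the Non-union and Union groups from the labels. Per the file headers, the scans were read by Agilent Feature Extraction 10.10.1.1. The authors deposited its signal intensity values on a linear scale, for single spots (40 a miR) and merged for each miR as the sum over its detected probes. A second deposited table holds quantile normalized log2 values, and served as an alternative only. An undetected miR has a merged signal of 0.1. The detection calls equalled a probe signal above 3 times its error in 8632 of 8632 calls.

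Quantile normalization followed log2 transformation of the merged values of 1079 murine miRs, and was done with limma 3.58.1 in R 4.3.3. The fit (lmFit, eBayes, two-sided) covered the 310 miRs that every array detected, and its p-values were adjusted after Benjamini and Hochberg. Single values were also tested by exact permutation over all 70 arrangements of the arrays. The threshold for 1 miR was an unadjusted limma p of 0.05. Differences are Non-union minus Union. For miR-204-5p on P18, the higher of the lowest detected signal of that array and the probe's own signal was used before normalization. Files were read with Python 3.11.15, numpy 2.4.6 and pandas 2.3.3, and figures were drawn with matplotlib 3.10.9. The fit was also run on the measured levels of the tested miRs, shuffled over the arrays, with known changes added. The outcome of that run is not given here.

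The miRs named are the members, the 4 further miRs of the Runx2-targeting panel, the seed relatives and other arms, the tissue markers, and for each member detected on all arrays the 3 miRs of the highest Pearson r. The members and lists were chosen with earlier results of these data known. MiR-486-5p of the red blood cell list was not found on the array. The alternatives were other normalizations, processed spot signals averaged, normexp correction of the median spot signals (offset 50) and other filters on dim miRs. They also held other values for miR-204-5p on P18, the authors' table, limma with trend and robust settings, and leaving out each array in turn. Each row of the slide held 1 group, so that row and group cannot be told apart. Arrays give no depth, and their number limits the precision. Sequences and loci are those of RefSeq on GRCm38.p6. The array design names an older build, and its coordinates were not used.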

Additional observations from a re-analysis of the deposited data

Results flagged for a closer look

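In the Union group, the level of miR-338-3p on P20 was 7.67 (normalized log2), whereas the other 3 arrays lay between 5.66 and 5.86. The gap took up a share of 0.903 of the range of the group, above the critical value of Dixon's test for 4 samples at a level of 95%. It was 1 of 16 groups of 4 arrays read in this way, and chance marks about 1 in 20. Both probes of miR-338-3p were high on P20, at 40.5 and 166 units.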

How the results depend on the processing

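MiR-218-5p remained higher in the Non-union group under all 18 alternatives, from 0.10 to 0.69 on the log2 scale over the fits without 1 array, and its unadjusted limma p fell under 0.05 without P20 alone. MiR-338-3p lay on either side of 0, from -0.42 to 0.40 over the fits without 1 array, with the opposite sign without P15 (0.03), P16 (0.13) and P20 (0.40). With no normalization, miR-338-3p was at -0.33 instead of -0.08 and miR-218-5p at 0.11 instead of 0.33. With normexp miR-218-5p was at 0.14, and with averaged spots miR-338-3p was at -0.14. The difference of miR-204-5p kept its sign under 13 alternatives, from 0.20 with no normalization to 2.18 without P13. The number of members detected on all arrays was 7 instead of 2 in the authors' table, which holds values for undetected miRs, and 2 to 3 over the sets without 1 array, since miR-204-5p entered without P18. The number of miRs with an unadjusted limma p under 0.05, 43 of 310, ran from 18 without P17 to 115 without P19, with 20 without P15, 28 without P16 and 21 without P18. The Pearson r of miR-218-5p with miR-338-3p ran from -0.10 without P20 to 0.63 without P16. MiR-30c-5p had an unadjusted limma p of 0.0471 with normexp, where its difference was -0.27. The cause of these shifts was not tested. No paired analysis was possible because the labels give the groups no shared numbers.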
